A study of Rattus norvegicus with 12 samples.

Results

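Ttr, Folr1, Kl, Clic6, Sostdc1, Aqp1, Enpp2, Otx2, Kcnj13 and Slc4a5 are 10 genes with high RNA levels in the choroid plexus, the secretory tissue that floats in the brain ventricles beside the striatum. They were taken as a named list, and every probe whose RefSeq accession maps to one of these symbols was collected, which gave 1 probe per gene among the 30367 distinct probes and 14629 symbols of the array. All 10 genes were among the 19530 features tested, where a feature had to be well above background on all 3 arrays of at least 1 group. Kl met that filter through 1 group only, the L-DOPA arrays.

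The samples were striatal RNA of male Wistar rats on 12 single-colour Agilent arrays. Every rat, those of all 4 groups, had received the dopamine-neuron toxin 6-hydroxydopamine in the left medial forebrain bundle, and was kept in the study if 3 mg/kg methamphetamine made it turn 7 or more times a minute. Each group has 3 arrays. ZDL is the lesioned side of rats given L-DOPA at 100 mg/kg (after benserazide, an inhibitor of its breakdown outside the brain) followed 30 min later by zonisamide at 50 mg/kg, and DL is the lesioned side of rats given L-DOPA at 100 mg/kg with benserazide. SL is the lesioned side of saline-treated rats, and NL is the non-lesioned side of saline-treated rats. Injections were daily for 7 days. The labels do not say whether SL and NL arrays share animals, nor how the striatum was cut out.

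The choroid plexus is a sheet of epithelial cells around leaky capillaries, and it secretes most of the cerebrospinal fluid. Its cells draw sodium, bicarbonate and water across the epithelium, carry folate and thyroid hormone into the fluid, and release growth factor antagonists and hormones. The tissue is anatomically separate from the striatum, but a block cut along the lateral ventricle can carry some of it. Spiny neurons and glia of the striatum are not known for high levels of most of these genes, with the exception of Enpp2, which oligodendrocytes also make.

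The level of a gene is its log2 signal minus the 75th percentile of log2 signal on the same array, so that 0 is that percentile. Levels of different genes come from different probes and are not set against each other. The 75th percentile lay between 793 and 1737 intensity units, 67.6% to 74.0% of probes were well above background, and the number of arrays limits the precision. Most defining markers of the striatum were high. The dopamine- and cAMP-regulated phosphoprotein gene Ppp1r1b lay between 4.68 and 5.78 on all 12 arrays, and the D2 receptor gene Drd2 between 4.19 and 4.95. The D1 receptor gene Drd1 lay between -1.75 and -0.79 and Gpr6, a receptor gene of indirect-pathway spiny neurons, between -5.21 and -3.71, both well above background on all 12 arrays. Of the choroid plexus genes, 7 were well above background on all 12 arrays. Exceptions were Kl on 4 arrays (replicate 2 of ZDL, replicate 1 of SL, replicates 1 and 2 of NL), Clic6 on replicate 1 of SL and replicate 1 of NL, and Sostdc1 on replicate 1 of SL.

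The promoters of 5 of the 10 genes are held in the RefSeq promoter table (build GRCr8, 250 bases before to 50 after the start). They are shown for Ttr, Kl and Kcnj13, because Otx2, another of these genes, encodes a homeodomain factor of a family that binds TAATCC, and their windows hold its core. Capitals mark TAATC or its reverse complement GATTA, searched on both strands, and sequences run 5′ to 3′ on the gene's strand. The Ttr window is chr18:12218508-12218807 (plus strand), the Kl window chr12:5325753-5326052 (plus strand) and the Kcnj13 window chr9:95518937-95519236 (minus strand).
Ttr: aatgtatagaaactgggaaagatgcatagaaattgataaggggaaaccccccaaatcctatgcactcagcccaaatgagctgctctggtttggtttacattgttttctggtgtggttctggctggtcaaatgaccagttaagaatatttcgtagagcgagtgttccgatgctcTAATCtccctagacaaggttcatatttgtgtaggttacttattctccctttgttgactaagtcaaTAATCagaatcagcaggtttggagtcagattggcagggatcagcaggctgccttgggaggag
Kl: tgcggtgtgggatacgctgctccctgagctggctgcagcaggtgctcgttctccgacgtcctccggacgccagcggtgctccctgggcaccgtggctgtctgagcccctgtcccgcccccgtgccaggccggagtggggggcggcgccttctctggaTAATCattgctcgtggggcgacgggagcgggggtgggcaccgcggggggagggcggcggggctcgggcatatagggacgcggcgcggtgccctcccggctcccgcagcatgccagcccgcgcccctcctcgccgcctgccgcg
Kcnj13: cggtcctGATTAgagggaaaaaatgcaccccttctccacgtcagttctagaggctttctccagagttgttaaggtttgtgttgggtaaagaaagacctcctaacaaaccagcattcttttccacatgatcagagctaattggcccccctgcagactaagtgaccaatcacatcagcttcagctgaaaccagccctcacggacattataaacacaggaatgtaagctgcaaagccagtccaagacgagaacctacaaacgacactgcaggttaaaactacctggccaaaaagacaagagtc
Ttr holds TAATC at positions -77 and -12 from its start, Kl at -93, and Kcnj13 holds GATTA at -243. The windows of Aqp1 and Slc4a5 hold neither. Of all 33469 promoters in the table, 22.9% hold TAATC or GATTA, and of 37 promoters of the other choroid plexus genes, 6 do. The longer TAATCC or its reverse complement GGATTA is in none of the 5 windows and in 7.17% of all promoters. A match is a description of the letters and not evidence of a binding site.

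On 4 of the 12 arrays every one of the 10 genes was high: replicate 3 of ZDL, replicates 2 and 3 of DL and replicate 3 of NL. The lowest of these 4 arrays lay above the highest of the other 8 in each gene, by 0.34 log2 units in Enpp2 and by up to 4.24 in Sostdc1. The split into 4 and 8 arrays was made after these values were seen, so it is a description and carries no test. The 4 are the arrays with the highest mean level of these 10 genes, so their high place in each gene was largely set by that choice. The same 4 arrays lay above the other 8 in 225 features, 1.15% of the 19530. In 133 features, or 0.681%, they lay below the other 8. SL is the group without an array among the 4.

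**Figure D1:**
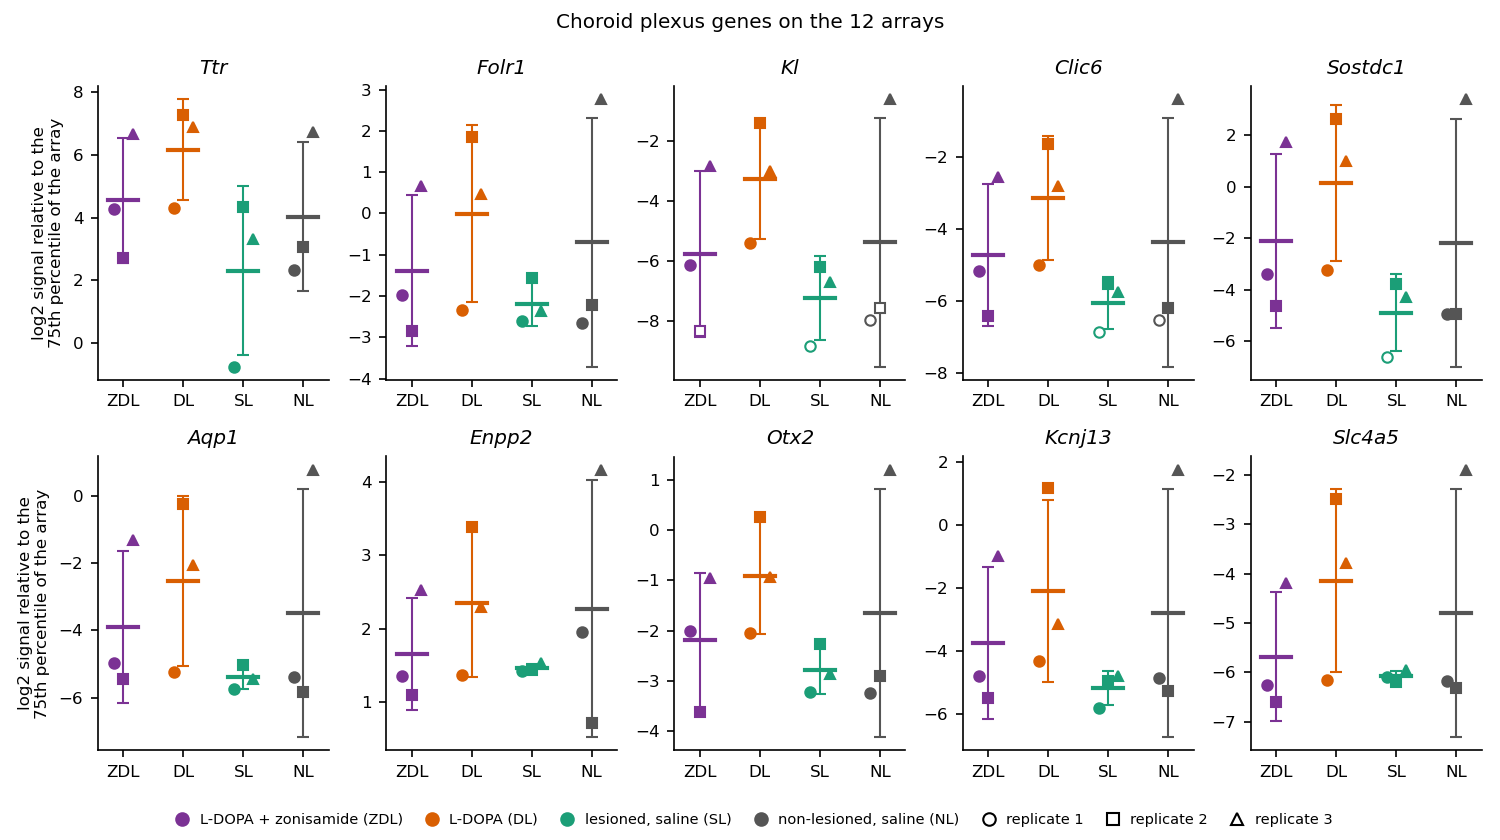
Log2 signal of each choroid plexus gene relative to the array's 75th percentile, 1 point per array, in the groups ZDL, DL, SL and NL, with group means (bars) and SD (error bars, n = 3). Open symbols are arrays on which the probe was not well above background. Replicate 3 of ZDL, replicates 2 and 3 of DL and replicate 3 of NL are above the other 8 arrays in all 10 panels.

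Among the secreted proteins, Ttr encodes transthyretin, the carrier of thyroid hormone and retinol-binding protein in cerebrospinal fluid. Its levels were 4.28, 2.72 and 6.67 in ZDL, 4.31, 7.27 and 6.89 in DL, -0.74, 4.35 and 3.30 in SL and 2.32, 3.05 and 6.73 in NL. The lowest array was replicate 1 of SL and the highest replicate 2 of DL, a 258-fold range, and every pair of groups overlapped. Ttr differed little among the 4 high arrays, over 0.60 log2 units, and widely among the other 8, over 5.09. None of its spots was saturated, and the brightest reached 237150 intensity units.

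Sostdc1 encodes a secreted antagonist of BMP and Wnt signals. It stood at -3.39, -4.62 and 1.72 in ZDL, at -3.23, 2.63 and 1.02 in DL, at -6.58, -3.77 and -4.29 in SL and at -4.94, -4.93 and 3.39 in NL. Replicate 1 of SL, the lowest, was not well above background. Over the other 11 arrays the range was 323-fold, and no array lay between -3.23 and 1.02. Its 10 spots per array differed by a median of 0.69 log2 units between the brightest and the dimmest.

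Kl encodes klotho, a co-receptor for FGF23 whose outer part is shed into the fluid. It was -6.14, -8.34 and -2.84 in ZDL, -5.38, -1.40 and -2.99 in DL, -8.82, -6.19 and -6.69 in SL and -7.95, -7.57 and -0.60 in NL. Each DL array was above each SL array, while ZDL and NL each held low arrays and 1 high array. Kl was tested only through DL, which favours that order, and replicate 1 of SL was not well above background. Over all features, 22.4% had DL and SL arrays that did not overlap, in either direction. The 4 arrays on which Kl was not well above background were the 4 lowest.

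Enpp2 encodes autotaxin, the secreted enzyme that makes lysophosphatidic acid. Its levels were 1.35, 1.09 and 2.52 in ZDL, 1.37, 3.39 and 2.29 in DL, 1.42, 1.43 and 1.53 in SL and 1.95, 0.70 and 4.17 in NL. It had the narrowest range of the 10, 11.1-fold, and the 3 SL arrays differed by little. In the oligodendrocyte list, 0 of 9 tested genes had the 4 high arrays above the other 8, where 1.15% of all features did. With 9 genes, 0 is near that share and carries no conclusion. The summed linear level of that list was 96.4 to 127 in ZDL, 102 to 145 in DL, 112 to 233 in SL and 95.9 to 146 in NL.

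Among the channels and transporters, Aqp1 encodes the water channel of the apical membrane. It was -4.96, -5.45 and -1.31 in ZDL, -5.25, -0.26 and -2.07 in DL, -5.73, -5.03 and -5.44 in SL and -5.37, -5.84 and 0.77 in NL. In contrast to Ttr, the 8 lower arrays lay close together, over 0.89 log2 units, and the 4 high arrays spread over 2.84. Slc4a5, an electrogenic sodium bicarbonate cotransporter, had the same form. It was -6.25, -6.61 and -4.19 in ZDL, -6.14, -2.49 and -3.79 in DL, -6.09, -6.20 and -5.96 in SL and -6.18, -6.32 and -1.90 in NL. The 8 lower arrays spanned 0.64 log2 units, the least of the 10 genes. Signals there were low, 12.7 to 27.3 intensity units per spot for Slc4a5 and 5.11 to 52.2 for Aqp1. Clic6 on replicate 1 of NL, not well above background, gave 9.22 to 15.6. The part of background in these narrow spans was not tested.

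Kcnj13 encodes the inward rectifier potassium channel Kir7.1. It was -4.77, -5.47 and -0.98 in ZDL, -4.32, 1.17 and -3.13 in DL, -5.79, -4.94 and -4.79 in SL and -4.86, -5.25 and 1.76 in NL. Replicate 3 of DL is the one value to read with care, since its 2 spots gave 18.4 and 531 intensity units, neither marked as an outlier. Taken alone they stand at -5.55, inside the range of the 8 lower arrays, and at -0.70, beside replicate 3 of ZDL.

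Folr1 encodes the folate receptor that carries folate into the fluid. It was -1.98, -2.85 and 0.66 in ZDL, -2.33, 1.85 and 0.48 in DL, -2.61, -1.57 and -2.36 in SL and -2.65, -2.21 and 2.76 in NL. Clic6, a chloride intracellular channel family gene, was -5.16, -6.43 and -2.56 in ZDL, -5.01, -1.62 and -2.79 in DL, -6.86, -5.53 and -5.76 in SL and -6.53, -6.19 and -0.39 in NL. Both repeated the order of Kl at the high end, with replicate 3 of NL first and replicate 2 of DL next.

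Otx2, the homeodomain transcription factor of choroid plexus epithelium, was -2.003, -3.61 and -0.94 in ZDL, -2.04, 0.26 and -0.94 in DL, -3.21, -2.25 and -2.86 in SL and -3.24, -2.89 and 1.199 in NL. Each DL array was above each SL array, where 22.4% of all features had no overlap of these groups in either direction. Over all 10 genes, replicate 3 of NL was the highest array in 9, with replicate 2 of DL next in the same 9, and Ttr had replicate 2 of DL highest. The lowest array was replicate 1 of SL in 5 genes, replicate 2 of ZDL in 3 and replicate 2 of NL in 2. Among the 2 remaining high arrays, replicate 3 of ZDL was above replicate 3 of DL in 7 of 10 genes, by most in Kcnj13. The Kcnj13 value on replicate 3 of DL averages 2 discordant spots. Its brighter spot alone, at -0.70, lay above replicate 3 of ZDL, at -0.98.

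The mean level of the 10 genes was 1.79 on replicate 3 of NL, 1.08 on replicate 2 of DL, -0.13 on replicate 3 of ZDL and -0.50 on replicate 3 of DL. On the other 8 arrays it lay between -4.50 and -2.80. The 4 high arrays came from 3 of the 5 slides. Replicates 3 of ZDL and DL shared a slide with replicate 2 of NL, which was low, and replicate 2 of DL shared one with replicates 2 of ZDL and SL, which were low. Replicate 3 of NL lay alone on its slide. The spread of replicate spots was 13.6% to 27.8% on the 4 high arrays and 3.74% to 22.6% on the others. Its part in the result was not tested.

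The choroid plexus genes were among the features that varied most between arrays of the same group. Pooled over the 4 groups, their within-group SD ran from 1.08 in Enpp2 to 3.38 in Sostdc1, against a median of 0.34 and a 95th percentile of 1.13 over all tested features. Sostdc1 ranked 2 of 19530, Kl 22, Kcnj13 23 and Aqp1 32, and 7 of the 10 genes were in the top 100. Enpp2, at rank 1124, was outside the top 1000. The 4 groups accounted for 15.9% of the variance of Enpp2 and up to 37.0% of that of Ttr, with a median of 23.1% over the 10 genes. The median over all features was 32.0%.

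**Figure D2:**
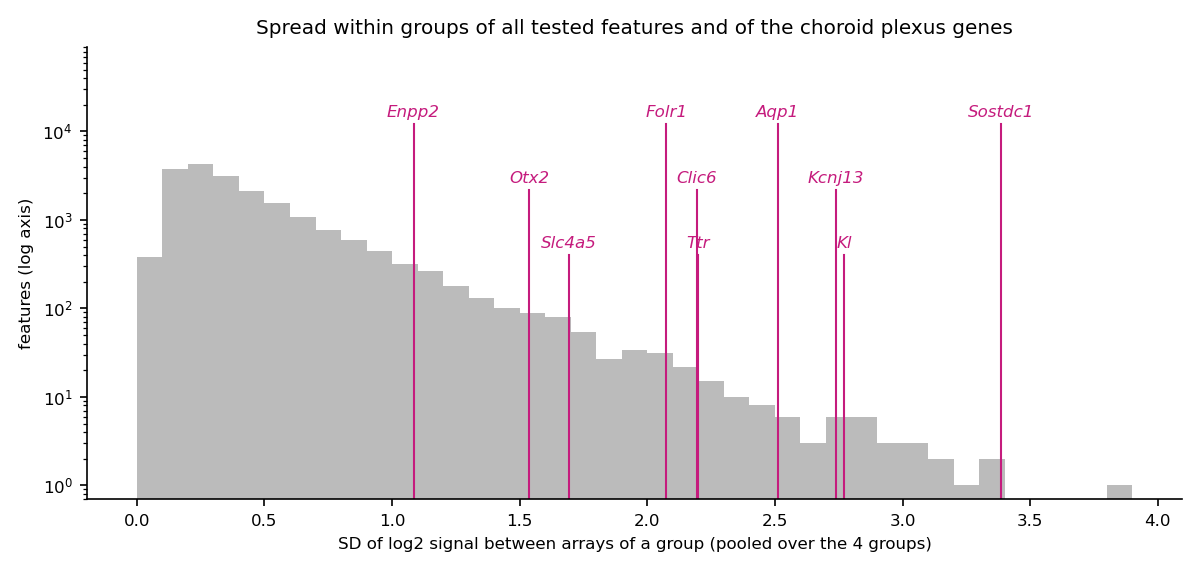
Distribution over the 19530 tested features of the SD of log2 signal between arrays of a group, pooled over the 4 groups (grey bars, log axis of feature counts), with the 10 choroid plexus genes as vertical lines. The lines run from 1.08 (Enpp2) to 3.38 (Sostdc1), while the median feature has 0.34.

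The group comparisons were made with 1 limma model of the 4 groups over all 12 arrays, with p values adjusted by Benjamini-Hochberg over all 19530 features and a threshold of 0.05. The labels call the arrays numbered replicates, with 3 arrays per group. In bulk tissue, fewer cells of a type and less RNA per cell cannot be told apart. The fit across the 4 groups asked whether any group differed: 0 of the 10 genes passed limma's moderated F test (adjusted p = 0.597 to 0.827), where 0.266% of all features did. At an unadjusted p under 0.05, the 4 comparisons below called 1 gene in all, Ttr in DL against SL.

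DL against SL asks what L-DOPA did on the lesioned side. All 10 genes had a higher mean in DL, by a median of 2.89 on the log2 scale, against -0.03 over all features, and none passed (adjusted p = 0.405 to 0.729), where 0.415% of features did. Ttr averaged 6.16 ± 1.61 in DL and 2.30 ± 2.69 in SL (SD, n = 3 each). Its log2 change was 3.85 ± 1.60 (SE, limma, adjusted p = 0.405), and 2.33 without replicate 1 of SL. Sostdc1 averaged 0.14 ± 3.02 in DL and -4.88 ± 1.497 in SL, and the difference was 5.02 ± 2.46 (SE, limma, adjusted p = 0.489), with replicate 1 of SL not well above background. Clic6, Sostdc1, Otx2 and Kcnj13 had DL arrays all above the SL arrays, which makes 4 of the 9 genes other than Kl. Kl was tested only through DL. Over all features, 22.4% had groups that did not overlap in either direction. Kcnj13 on replicate 3 of DL averages 2 discordant spots, and the dimmer, at -5.55, lay below replicates 2 and 3 of SL. Within the slide that held replicate 2 of both groups, all 10 genes were higher in DL, with a median of 3.81. Within the slide with replicate 1 of both, 8 of 10 were higher and the median was 1.32. Leaving out the 4 high arrays, which leaves DL with 1 array, lowered the median to 0.79, and without replicate 2 of DL alone it was 1.59.

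ZDL against DL asks what zonisamide added to L-DOPA. All 10 genes had a lower mean in ZDL, by a median of -1.56 against -0.03 over all features. None passed (adjusted p = 0.682 to 0.829), where 0.466% of features did, and the groups overlapped in every gene. Ttr averaged 4.56 ± 1.99 in ZDL and 6.16 ± 1.61 in DL (SD, n = 3 each), a log2 change of -1.60 ± 1.60 (SE, limma, adjusted p = 0.757). Equal replicate numbers shared a slide here, and the 3 slides gave different pictures. The median difference over the 10 genes was -0.07 between replicates 1, -4.75 between replicates 2 and 0.21 between replicates 3. Replicate 2 was thus lower in ZDL in all 10 genes, and replicate 3 higher in ZDL in 7 of 10. Kcnj13, with discordant spots on replicate 3 of DL, is among the 7. The median was -0.71 without replicate 2 of DL, -0.70 without replicate 2 of ZDL and -0.77 without the 4 high arrays.

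SL against NL asks what the loss of dopamine did. All 10 genes had a lower mean in SL, by a median of -1.70, against 0.05 over all features. None of the 10 passed in limma (adjusted p = 0.743 to 0.807), and 0% of features did. Kcnj13 averaged -5.17 ± 0.54 in SL and -2.78 ± 3.94 in NL (SD, n = 3 each), and its log2 change was -2.39 ± 1.99 (SE, limma, adjusted p = 0.743). The sign rested on replicate 3 of NL: without that array the median over the genes was 0.19. Within the slide that held replicate 1 of both, 3 of 10 genes were higher in SL and the median difference was -0.45. With slide as a fixed block the median was 0.50.

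ZDL against SL joins both drugs. All 10 genes had a higher mean in ZDL, by a median of 1.38, against -0.05 over all features. None passed in limma (adjusted p = 0.748 to 0.976), where 0% of features did. Sostdc1 averaged -2.10 ± 3.36 in ZDL and -4.88 ± 1.497 in SL (SD, n = 3 each), with a log2 change of 2.78 ± 2.46 (SE, limma, adjusted p = 0.800). Replicate 3 of ZDL carried the difference, since the median without it was 0.02. Between replicates 1 on their slide the median was 1.11, and between replicates 2 on theirs -0.88. The 4 comparisons share arrays: SL enters 3 of them and DL and ZDL 2 each, so their directions are not independent of each other.

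**Figure D3:**
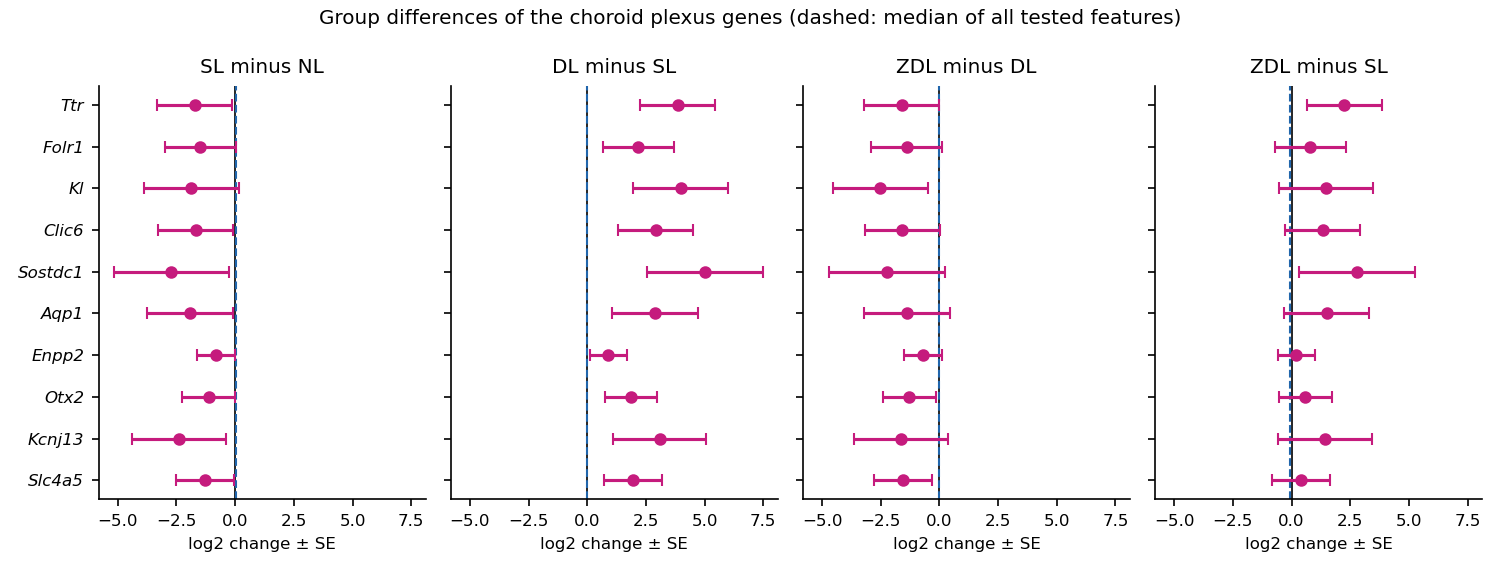
Log2 change (points) ± limma's SE (bars) of each choroid plexus gene in the 4 comparisons, with the group named first minus the group named after it, and the median over all features (dashed line). The 10 genes lie on 1 side of 0 in every panel, and all SEs are between 0.79 and 2.46.

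How closely the other genes followed Ttr from array to array was described over the 8 lower arrays, since the 4 high ones form a separate cluster. All 9 relations computed are given as descriptions; several points share a slide or a group. Sostdc1 followed Ttr at Pearson r = 0.96 (Spearman rho = 0.90), Clic6 at 0.86 (rho = 0.93) and Kl at 0.85 (rho = 0.90). Of the 8 arrays, Kl was well above background on only 4, Clic6 on 6 and Sostdc1 on 7. These values therefore include readings near background. Kcnj13 had r = 0.79 (rho = 0.64), Aqp1 0.68 (rho = 0.69), Otx2 0.68 (rho = 0.81) and Folr1 0.60 (rho = 0.79). Enpp2 (r = -0.10, rho = -0.05) and Slc4a5 (r = -0.11, rho = -0.05) did not follow it. Slc4a5 gave low signals on all 8 arrays, 12.7 to 27.3 intensity units, which limits its value. Leaving out the 2 arrays farthest from the median of Ttr, replicates 1 and 2 of SL, gave r = 0.95 for Sostdc1, 0.99 for Clic6, 0.93 for Kl, 0.94 for Otx2 and 0.74 for Folr1. The same step gave 0.66 for Kcnj13, 0.59 for Aqp1, 0.30 for Slc4a5 and -0.15 for Enpp2. It kept replicate 2 of ZDL and replicates 1 and 2 of NL, where Kl was not well above background.

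**Figure D4:**
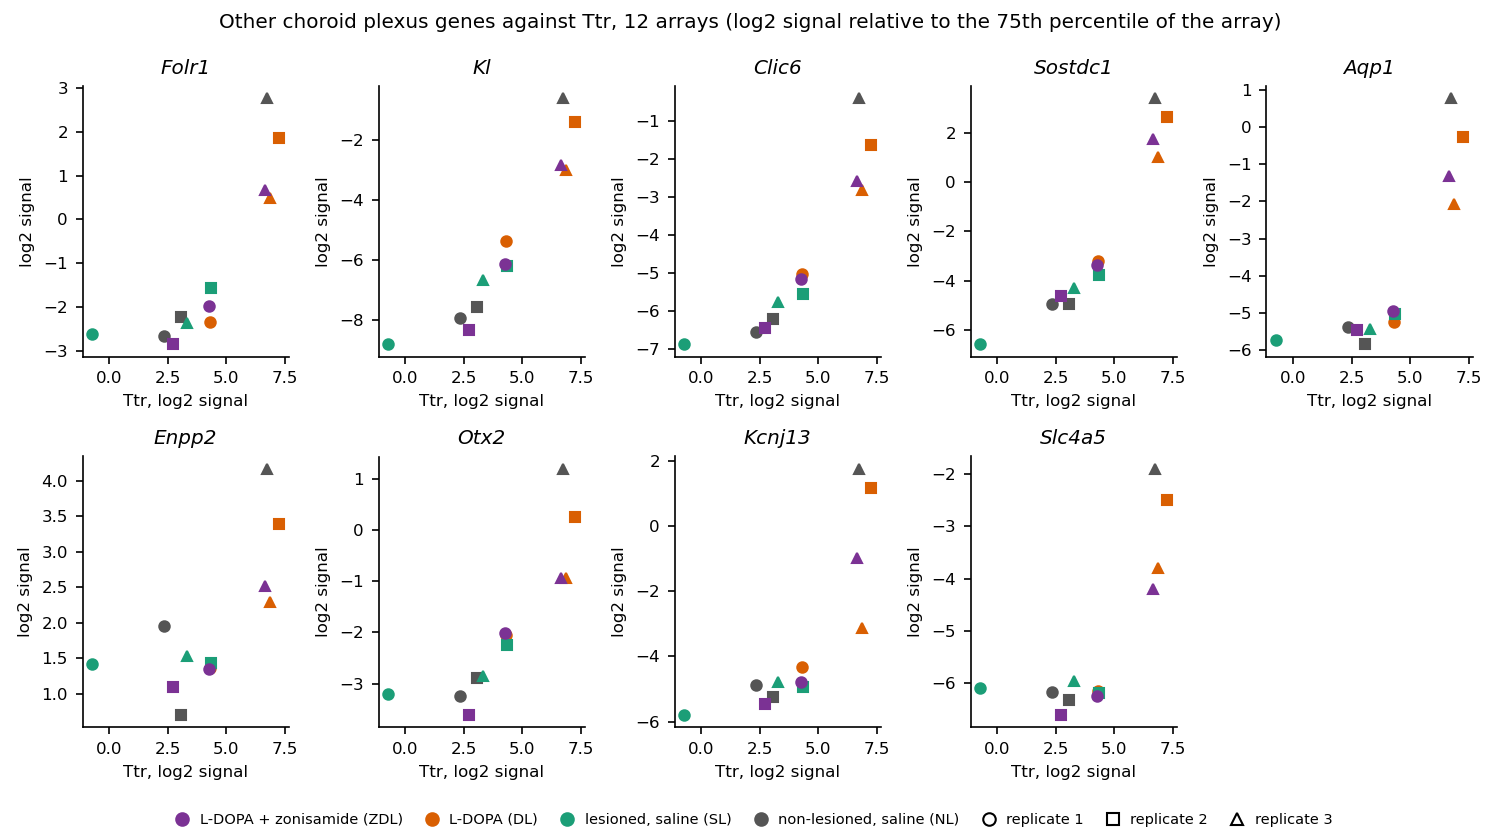
Level of each of the other 9 choroid plexus genes (vertical axis) against Ttr (horizontal axis), both as log2 signal relative to the array's 75th percentile, 1 point per array, with colours for groups and shapes for replicate numbers. The 4 arrays with Ttr above 6 form a separate cluster at the upper right of each panel. Among the other 8, Sostdc1, Clic6 and Kl are higher where Ttr is higher (r = 0.85 to 0.96), unlike Enpp2 and Slc4a5. Of those 8, Kl was well above background on 4, Clic6 on 6 and Sostdc1 on 7.

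Whether the genes moved together inside the groups was tested with a limma model of the 4 groups plus the level of Ttr, fitted to all 19529 other features with 7 residual degrees of freedom. All 9 slopes were above 0, from 0.34 ± 0.12 in Enpp2 to 1.37 ± 0.23 in Sostdc1 (SE, log2 units per log2 unit of Ttr). None passed after adjustment over all features (lowest adjusted p = 0.541, limma), and neither did any other feature (0%), while 1052 features had an unadjusted p under 0.05, all 9 genes among them. A single array decided this count. Without replicate 1 of SL, which had the lowest Ttr, 6 of the 9 genes passed: Folr1, Kl, Clic6, Sostdc1, Aqp1 and Otx2. The background was then 0.0973% of features with a slope above 0.

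With Kl in place of Ttr in the same model, 8 of the 9 other genes passed, where 0.282% of features had a called slope above 0. Sostdc1 had a slope of 1.21 ± 0.07 (SE, log2 units per log2 unit of Kl, limma, adjusted p = 7.74e-05), Clic6 0.79 ± 0.04 (adjusted p = 2.44e-05) and Otx2 0.54 ± 0.04 (adjusted p = 0.000655). Aqp1, Folr1, Kcnj13, Slc4a5 and Ttr also rose with Kl, and Enpp2 had a slope of 0.35 ± 0.06 (adjusted p = 0.0721). Kl itself passed the filter on dim probes through DL only and was not well above background on 4 of the 12 arrays. Over the 8 arrays on which it was, with 3 residual degrees of freedom, none of the 9 genes passed in limma (lowest adjusted p = 0.0570), while all 9 had an unadjusted p under 0.05, as did 1460 features. The 6 genes other than Ttr that were well above background on all 12 arrays were therefore each put in place of Ttr. Of the 9 genes then left, 8 passed with Folr1 (0.333% of all features), 8 with Aqp1 (0.328%), 8 with Kcnj13 (0.287%), 8 with Slc4a5 (0.338%), 7 with Otx2 (0.323%) and 6 with Enpp2 (0.174%). Ttr was thus the one of these 7 genes on which no slope passed. The replacements were chosen after the data were seen, and these fits share the same arrays and genes. All fits over 12 arrays include the 4 high ones, and ZDL, DL and NL each hold both high and low arrays. The split thus enters the slopes, which are no separate support for it. Without the 4 high arrays, which leaves DL with 1 array, 8 of the 9 slopes on Ttr were above 0. The share of all features with a slope on Ttr above 0 is not given, so counts of slope signs are descriptions.

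Other genes of the choroid plexus were taken from a list of 42, of which 36 had a probe and 30 were tested; Lbp was above background on no array. Among the 30, 14 had the 4 high arrays above the other 8, where 1.15% of all features did. In 28 the slope on Ttr was above 0, and none of these passed after adjustment over all features. Without the 4 high arrays, which leaves DL with 1 array, 19 of the 30 slopes on Ttr were above 0. No share of all features stands beside these counts of signs, so they carry no conclusion. Without replicate 1 of SL, 8 of 30 passed, and with Kl in place of Ttr 13 of 30 rose. Those that rose with Kl included Msx1, a homeobox gene of the roof-plate lineage (slope 0.51 ± 0.02, SE, adjusted p = 1.94e-05), and Calml4, a calmodulin-like gene (0.55 ± 0.03, adjusted p = 3.52e-05). Lmx1a, the LIM homeodomain factor that specifies choroid plexus, had 0.78 ± 0.05 (adjusted p = 0.000162). Steap1, a metalloreductase family gene, had 0.80 ± 0.07 (adjusted p = 0.00201). The potassium channel subunit gene Kcne2 and the osmosensitive channel gene Trpv4 rose as well, with slopes of 0.55 ± 0.07 and 0.67 ± 0.08. Htr2c, the serotonin 2C receptor that striatal and choroid plexus cells both express, had a slope of -0.01 ± 0.08 (adjusted p = 0.993).

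Igf2, a growth factor of choroid plexus and meninges, was between 2.30 and 3.94 on the 4 high arrays and between 0.42 and 1.23 on the other 8. Igfbp2, which binds it, lay between 1.26 and 3.16 on the 4 and between -1.91 and -0.29 on the 8. Neither range overlapped.

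Markers of neighbouring tissues were set beside these genes. Over all features, 1.15% had the 4 arrays above the other 8, so a count of 0 in a short list is near that share. Of 26 genes of ependyma and motile cilia, 16 were tested, 0 had the 4 arrays above the other 8, and 14 had a slope on Ttr above 0 (median slope 0.10, none called). The share of all features with such a sign is not given, so the count of 14 is a description. With Kl in place of Ttr, 2 of the 16 rose, where 0.282% of all features did. They were Foxj1, the master factor of motile cilia (0.18 ± 0.02, SE, adjusted p = 0.0197, limma), and Cfap126, a ciliary basal body gene (0.26 ± 0.04, adjusted p = 0.0435). Of the 6 replacements measured on all arrays, Foxj1 rose with 4 and Cfap126 with 1. On Ttr, the smallest p values of this list were those of Rsph4a, a radial spoke gene with a slope of 0.31 ± 0.06 (unadjusted p = 0.000495, adjusted p = 0.673), and Foxj1. The summed linear level of the list ran from 3.77 to 5.61 in ZDL, 4.16 to 4.35 in DL, 3.75 to 6.28 in SL and 3.99 to 6.41 in NL. The groups overlapped. The sum of the 10 choroid plexus genes was 9.05 to 114 in ZDL, 23.1 to 180 in DL, 3.61 to 23.8 in SL and 9.25 to 150 in NL, of which the bright Ttr probe made up 16.5% to 92.6% on an array. Without Ttr, the sum of the other 9 was 2.46 to 12.4 in ZDL, 3.27 to 25.5 in DL, 3.01 to 3.43 in SL and 2.09 to 44.3 in NL, still a wider range than that of the ependymal list. Enpp2, which oligodendrocytes also make, was the largest term of that sum on the 8 lower arrays. Its log2 level there was 0.70 to 1.95, where the remaining genes lay below 0.

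All 15 meningeal genes were tested, and 2 had the 4 arrays above the other 8; none rose with Kl. The 2 were Fmod, a collagen-binding proteoglycan, at -0.58 to 1.53 on the 4 and -2.07 to -1.36 on the 8, and Col3a1, the type III collagen gene, at -2.26 to -1.55 on the 4 and -3.34 to -2.48 on the 8. The summed level of the list was 6.48 to 10.5 in ZDL, 7.16 to 14.0 in DL, 8.52 to 11.03 in SL and 6.90 to 8.67 in NL. None of the 11 tested vessel wall genes, 6 subventricular progenitor genes, 4 cortical genes, 6 septal and thalamic genes or 4 blood genes had the 4 arrays above the other 8, or rose with Kl. Of 14 tested genes of striatal spiny neurons, 0 had the 4 above or below the other 8, and 12 had a slope on Ttr below 0 with none called. Counts of 0 in lists this short are near the shares over all features, 1.15% above, 0.681% below and 0.282% rising with Kl. The share of all features with a slope on Ttr below 0 is not given, so the count of 12 is a description and carries no conclusion. The summed level of the spiny neuron genes was 247 to 328 in ZDL, 254 to 289 in DL, 299 to 319 in SL and 254 to 364 in NL. The part of ventricular or other tissue in these differences was not tested.

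**Figure D5:**
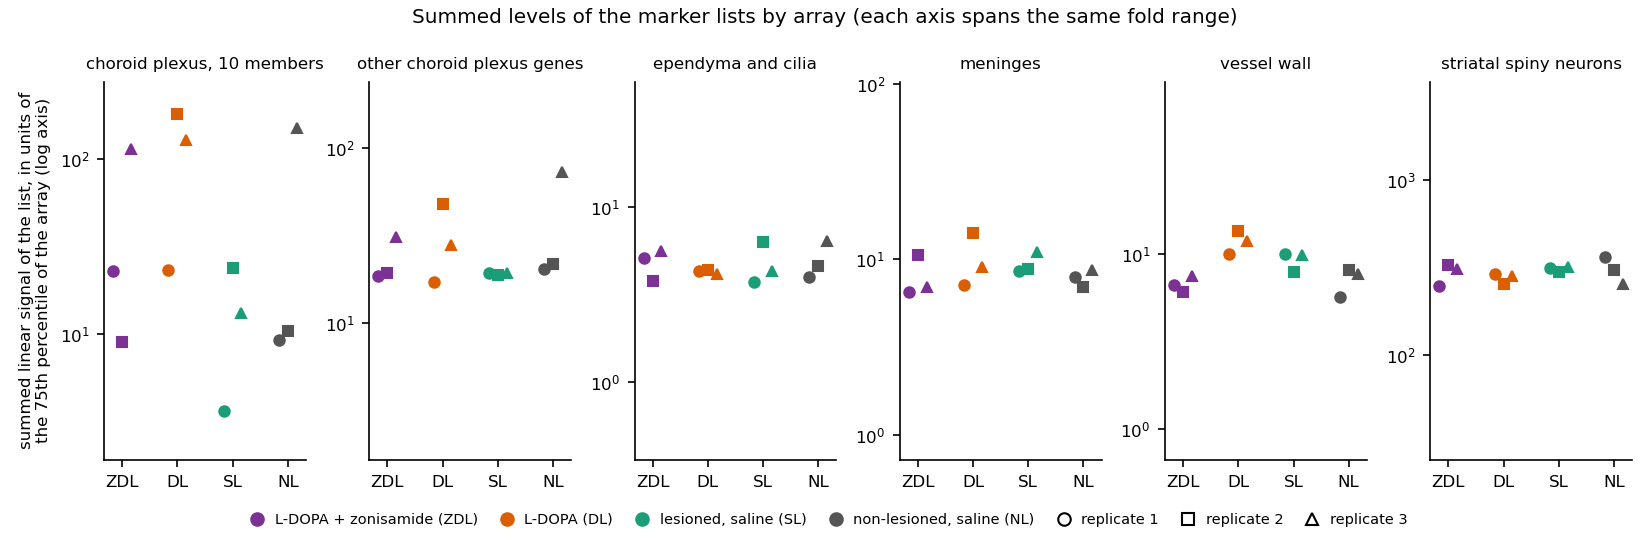
Summed linear signal of the genes of 6 marker lists on each array, in units of the array's 75th percentile (log axis, the same fold range in every panel), for the groups ZDL, DL, SL and NL. The 10 choroid plexus genes range from 3.61 to 180, a sum of which Ttr alone is 16.5% to 92.6%, while spiny neuron genes stay between 247 and 364.

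Pearson r with Ttr over the 12 arrays was used only to rank features, and among the 10 genes themselves Sostdc1, Kl and Clic6 had 0.92, 0.92 and 0.89. Outside the 10 genes, the named genes most like Ttr were C8h11orf97 (r = 0.91), the annexin gene Anxa1 (0.90), Msx1 (0.89), the acetyltransferase gene Nat8 (0.89) and Cltrn, which encodes collectrin (0.89). Nat8 was well above background on only 4 of the 12 arrays and Cltrn on 7, so their values include readings near background. Calml4, Crb3, Npepl1 and Rsph10b followed, with r between 0.87 and 0.88. Over the 8 lower arrays, C8h11orf97 and Msx1 had r = 0.91, and Crb3 had 0.60. C8h11orf97 lay between -2.32 and -0.60 on the 4 high arrays and between -5.14 and -3.43 on the other 8. The lowest r belonged to Top3b (-0.92), Map3k8, Krt26, Cep131 and Zfp287 (-0.82). Top3b, a topoisomerase gene, moved over a small range, from -0.37 to 0.44.

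Adding Ttr to the group model asked how the calls of the other features stand once its level is taken into account. In DL against SL, 81 features passed without Ttr and 0 with it. The number with an unadjusted p under 0.05 in limma was 2191 without Ttr and 1161 with it. In ZDL against DL, 91 passed without Ttr and 10 with it, 9 of which were shared. Here 2405 had an unadjusted p under 0.05 without Ttr and 2258 with it. The models differ by 1 residual degree of freedom. Ttr itself averaged 6.16 in DL and 2.30 in SL, so as a covariate it takes up part of that comparison. What the lost calls owe to choroid plexus tissue was not tested. Of the 62 features higher in DL than in SL, 0 had the 4 high arrays above the other 8, and so did 0 of the 74 features lower in ZDL than in DL. Over all features the share was 1.15%. DL, ZDL and NL each hold arrays on both sides of that split. A feature that follows it therefore has a wide spread within groups and can hardly pass. None of the 81 or the 91 features was among the 58 with a called slope on Kl. A slope within groups also adds to that spread, so these counts of 0 were nearly set in advance and carry no conclusion.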

How the data were processed

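The authors extracted the 12 scanned arrays with Agilent Feature Extraction (version 10.7.3.1 per the file headers, 10.7 per the submitters' processing notes). Their processed signal is an intensity, background-subtracted and detrended within the array but not scaled between arrays, per the file headers. The deposited value table holds the same intensity on all 62976 spots of each array (relative tolerance 1e-06). Median spot and background brightness, an intensity without subtraction per the file headers, served in 1 alternative.

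Each array's 75th percentile of log2 processed signal over non-control spots was subtracted, outlier spots were left out and the spots of a probe averaged. A probe was tested if at least 0.5 of its spots were well above background on all 3 arrays of at least 1 group (21600 probes). Symbols came through RefSeq accessions (listed on build GRCr8): 17328 probes carried 1 symbol, 13039 none and 0 several. The brightest probe stood for a gene, and unnamed probes were kept (11127 named and 8403 unnamed features). The array design predates that build, so no probe coordinates are given.

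Fits used limma 3.58.1 in R 4.3.3 (package data.table, version 1.17.8), with 8 residual degrees of freedom and two-sided tests, and were tested on simulated data. Correlations used scipy 1.17.1 and figures matplotlib 3.10.9. The genes, the marker lists and the tests were chosen with earlier results of these data known. Named besides the 10 genes are the 10 symbols most like Ttr and the 5 least like it, and up to 4 genes per marker list with the smallest p for the slope on Ttr. Of the symbols most like Ttr, 1 is not reported here. Other genes named were chosen after their values were seen. Correlations over all 12 arrays serve only as a ranking, because the arrays form separate clusters.

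Slides held replicate 1 of all 4 groups, replicates 2 of ZDL, DL and SL, replicates 3 of ZDL and DL with replicate 2 of NL, and, alone, replicate 3 of SL and replicate 3 of NL. In ZDL against DL the same-numbered arrays shared slides and deviated together from their group means (r = 0.37, 0.20 and 0.25), so the numbers pair arrays there and in no other comparison. Alternatives were quantile normalization, normexp (offset 50) with quantile normalization, no filter on dim probes or one over all 12 arrays, probe means per gene, fits of only the compared groups, a robust prior with an intensity trend, weighted arrays, the replicate block, slide as a fixed or random block, each array left out, Kl in place of Ttr, no group terms, and Ttr as a covariate. Leaving out the 4 high arrays, leaving Kl out of the genes, other genes in place of Ttr, and Kl only on arrays where it was well above background were added after the data were seen.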

Additional observations from a re-analysis of the deposited data

How the results depend on the processing

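No choroid plexus gene passed in any of the 4 comparisons or over the 4 groups under any alternative run, leaving out each array included. The median change over the 10 genes ranged, with single arrays left out, from 1.59 to 4.02 in DL minus SL, from -2.65 to -0.70 in ZDL minus DL, from -2.67 to 0.19 in SL minus NL and from 0.02 to 2.23 in ZDL minus SL. Normexp gave 1.81 in DL minus SL, -1.02 in ZDL minus DL and 0.78 in ZDL minus SL, array weights -2.36 in ZDL minus DL, -1.09 in SL minus NL and 0.63 in ZDL minus SL, and the filter on all 12 arrays, which drops Kl, Clic6 and Sostdc1, 0.79 in ZDL minus SL over the 7 genes left. Without Kl the medians were 2.87 in DL minus SL, -1.54 in ZDL minus DL, -1.68 in SL minus NL and 1.33 in ZDL minus SL. With the replicate block the medians were those of the fit without it, such as -1.56 in ZDL minus DL, and the block changed no call of these genes. Signs turned in 8 of the 10 genes in SL minus NL, all but Ttr and Kcnj13, with slide as a fixed block, without replicate 3 of NL and without the 4 high arrays. They turned in 5 (Folr1, Kl, Enpp2, Otx2 and Slc4a5) in ZDL minus SL without replicate 3 of ZDL or the 4 high arrays. Without those 4 arrays they also turned in Folr1, Enpp2 and Slc4a5 in DL minus SL and in Aqp1 in ZDL minus DL. Values follow for Folr1 and Enpp2. In SL minus NL they were 0.71 and 0.038 with slide as a fixed block, and 0.25 and 0.13 both without replicate 3 of NL and without the 4 high arrays. Over single arrays left out, Folr1 ran from -2.46 to 0.25 and Enpp2 from -1.60 to 0.13. In DL minus SL they were -0.15 and -0.091 without the 4 high arrays. In ZDL minus SL they were -0.23 and -0.24 both without replicate 3 of ZDL and without the 4 high arrays, and the highest values with an array left out were 1.52 and 0.48. The count of the 9 other genes with a called slope on Ttr was 0, ranged from 0 to 6 with single arrays left out, and was 2 without group terms, 8 with Kl in place of Ttr (0 on the 8 arrays with Kl well above background), 6 with Enpp2, 7 with Otx2 and 8 with each of the other 6. For the other choroid plexus genes it was 0, ranged from 0 to 8, and was 13 with Kl (0 on those 8 arrays), 6 with Enpp2, 12 with Folr1 and Sostdc1 and 13 with the other 5. Correlations with Ttr over the 8 lower arrays were -0.10 for Enpp2 and -0.11 for Slc4a5, where those over 12 arrays were above 0. With Ttr as a covariate, 0 features passed in DL minus SL and 10 in ZDL minus DL. Apart from the array left out or the smaller sample, the cause was not tested. Single spots near background limit Kl, Clic6 and Sostdc1 on the dimmest arrays, and low signals limit Aqp1 and Slc4a5 on the 8 lower arrays.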

Other observations

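Beside the genes of any list, 25 features with a symbol and 7 without one had a called slope above 0 on Kl within groups, and 3 features, all without a symbol, had a called slope below 0. These slopes use the levels of Kl on all 12 arrays, and 0 features passed on the 8 arrays with Kl well above background. Those named here were chosen after their values were seen. The steepest was Cltrn, the collectrin gene, whose product helps amino acid transporters reach the membrane. Its slope was 1.18 ± 0.05 (SE, limma, adjusted p = 1.94e-05), with levels from -2.65 to 0.15 on the 4 high arrays and up to -6.12 on the other 8. Cltrn was well above background on only 7 of the 12 arrays, so its lower levels include readings near background. Pla2g5, a secreted phospholipase gene, had 0.78 ± 0.06 (adjusted p = 0.00079). Kcnq1, a voltage-gated potassium channel gene whose product can assemble with that of Kcne2, had 0.57 ± 0.06 (adjusted p = 0.00589), at -2.65 to -1.11 on the 4 high arrays and up to -4.001 on the other 8. Slc5a5, the sodium iodide symporter gene, had 0.43 ± 0.07 (adjusted p = 0.0425), and the iron genes Hfe and Scara5 had 0.46 ± 0.07 (adjusted p = 0.0236) and 0.45 ± 0.06 (adjusted p = 0.026). The junction genes Cldn3 and Cdh3 had slopes of 0.59 ± 0.07 and 0.48 ± 0.06, and Cdkn1c, a cell cycle inhibitor gene, 0.30 ± 0.03.

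In 28 features the 4 high arrays lay above the other 8 by more than 1 log2 unit. They comprised 9 of the 10 choroid plexus genes (Enpp2 being the exception), 9 genes of the other choroid plexus list, 9 further symbols and 1 unnamed probe. The 4 arrays are those with the highest mean level of the 10 genes. The place of these genes among the 28 was thus largely set by that choice and carries no conclusion. The widest gaps after Sostdc1 were those of Cltrn (3.47, well above background on 7 of 12 arrays), Aqp1 (2.88) and Glycam1 (2.50).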
